A study of Drosophila melanogaster with 12 samples.

Results

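State 8 is the class of heterochromatin-like regions embedded in euchromatin, 1 of the 9 chromatin states of the modENCODE list with which the tagged histones were mapped here. The class was taken as every listed region with state number 8 whose chromosome name was neither 4 nor a name ending in Het, which gave 2332 of the 42126 listed regions. A further 162 State 8 regions, 55 on chromosome 4 and 107 on Het names, were left out. The state numbers were set by modENCODE and not by any measurement in the testes, so a state is a label carried over from another source, and no mark of heterochromatin was measured here against which the label could be checked.

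The study mapped GFP-tagged histones by chromatin immunocleavage (ChIC), in which an anti-GFP antibody guides micrococcal nuclease (MNase) to the tagged histone and the released DNA is sequenced. The 12 libraries came from 4 groups of 3 biological replicates each, which expressed H3, H3A31S (alanine replaced by serine at residue 31), H3.3 or H3.3S31A (serine replaced by alanine at the same residue). All groups were testes of Drosophila melanogaster males aged about 2 days, pooled at 18 to 20 pairs per replicate. Every group carried hs-flp and a UASp cassette of the histone as an EGFP form, flanked by FRT sites, followed by an mCherry form. Every group also carried nos-Gal4, which drives expression in the early germline, and UAS-Upd, a ligand of the JAK-STAT pathway. In the H3, H3.3 and H3.3S31A groups the cassette and UAS-Upd lay together on the second chromosome, whereas the H3A31S cassette lay on the third chromosome, apart from UAS-Upd on the second, and was driven by a different nos-Gal4 line. Upd turns these testes into tumours of germline stem cell (GSC)-like and cyst stem cell-like cells, so the tissue is a tumour model. The tagged histone was made under a germline driver, and somatic cells were also present. The reads were deposited as 12 columns without names, so no group could be compared with another for any State 8 region, and only the sum over all 12 columns is used.

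Heterochromatin is chromatin that stays compact through the cell cycle. In flies it is marked by methylation of histone H3 at lysine 9, which is bound by the HP1 protein, and it fills the pericentromeric parts of the chromosomes with satellites and transposable elements (TEs). Similar marks also occur away from the centromeres, over silent stretches of the arms, and State 8 is the class that collects them. The classes most like it are State 7, pericentromeric heterochromatin, and State 9, the class named transcriptionally silent and intergenic. All values below are complete counts over the list, with no sample or replicate behind them, so they are descriptions and carry no test.

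Genes and sequence were compared with the list on chromosome 2L only, in the dm6 build of the genome. The list does not state its build. On 2L, State 1 regions, the promoter and transcription start site (TSS) class, covered 1.76 of 22.9 Mb of listed bases and held 40.2% of 3673 annotated TSSs. In windows of 2 Mb along the arm that share ranged from 16.1% to 47.7%, with the lowest value in the last window.

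Nearly every listed base lies in a pair of listed regions, which may carry different states. Stretches where both regions are State 8 were chosen to show sequence, because no other state is listed over them. Whether they stand for State 8 better than the rest was not tested. On 2L there were 84 such stretches, with a median length of 1400 bp and 190.4 kb in all. Such stretches make up 4.27% of State 8 bases on 2L and differ from the class as a whole. TEs covered 0.611% of their bases, against 3.85% of State 8, and exons 19.1%, against 13.7%. The middle 200 bases of the 4 longest are shown as examples of these stretches only. They are on the plus strand of dm6, with exon bases of protein-coding genes in capitals. Stretch 1 spans 13.4 kb next to and within Dpp10, and its middle (chr2L:6601563-6601762) lies outside any protein-coding gene. Stretch 2 spans 9 kb over CG15143, CG15144 and Dhc36C, a dynein heavy chain gene, and its middle (chr2L:17521163-17521362) is coding sequence throughout. Stretch 3 spans 7.6 kb of side-II, and its middle (chr2L:14937263-14937462) is intron with 28.5% G or C. Stretch 4 spans 7.6 kb over CG10651, and its middle (chr2L:20134663-20134862) holds 142 coding bases on both sides of an intron.
stretch 1: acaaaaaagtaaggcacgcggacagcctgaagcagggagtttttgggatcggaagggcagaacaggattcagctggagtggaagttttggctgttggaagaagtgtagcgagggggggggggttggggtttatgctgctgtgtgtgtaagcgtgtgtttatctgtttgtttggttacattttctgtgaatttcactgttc
stretch 2: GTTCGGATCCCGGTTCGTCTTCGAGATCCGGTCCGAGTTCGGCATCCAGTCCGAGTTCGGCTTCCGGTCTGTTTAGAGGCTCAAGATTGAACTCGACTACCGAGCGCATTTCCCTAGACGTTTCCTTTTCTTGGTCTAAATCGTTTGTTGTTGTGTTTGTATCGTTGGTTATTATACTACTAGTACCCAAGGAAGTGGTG
stretch 3: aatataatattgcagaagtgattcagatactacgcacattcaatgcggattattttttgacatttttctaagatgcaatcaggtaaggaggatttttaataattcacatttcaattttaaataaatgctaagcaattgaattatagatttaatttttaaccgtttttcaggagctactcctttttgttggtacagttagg
stretch 4: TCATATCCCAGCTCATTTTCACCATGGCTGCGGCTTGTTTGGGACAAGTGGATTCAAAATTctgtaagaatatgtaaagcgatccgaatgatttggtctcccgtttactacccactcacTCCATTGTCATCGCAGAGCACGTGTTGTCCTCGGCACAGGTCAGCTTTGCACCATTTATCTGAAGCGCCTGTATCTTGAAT

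None of these 4 sequences holds an annotated TE base. Simple satellite repeats were rare in State 8 on 2L, and also in States 7 and 9 and over the whole arm. AATAT repeated 3 times in a row was found, on either strand, in 10 of 22321 State 8 bins of 200 bp (0.0448%). The share was 0.0320% for State 7, 0.0268% for State 9 and 0.028% for all bins of the arm. AAGAG and AATAG repeated 3 times in a row were found in 0 State 8 bins, and in 5 and 1 bins of the whole arm. CA repeated 6 times in a row was found in 1.75% of State 8 bins, against 1.43% for State 9, 0.256% for State 7 and 1.15% for the whole arm. GAGAG was found in 20.0% of State 8 bins and 21.0% of all bins, and runs of 10 A in 4.87% and 4.42%.

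State 8 was a class of the X chromosome more than of the autosomes. Of the 2332 regions, 979 (42.0%) lay on X, where they made up 12.4% of all listed regions, against 4.06% on the autosomal arms. There were 407 regions on 3L, 403 on 2L, 288 on 3R and 255 on 2R. By bases the difference was of the same kind, since State 8 regions lay over 33.3% of the covered bases of X, 19.5% of 2L, 13.4% of 3R, 10.97% of 3L and 7.02% of 2R. Over the 5 arms they covered 19.7 Mb, which is 16.7% of the covered bases.

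**Figure D1:**
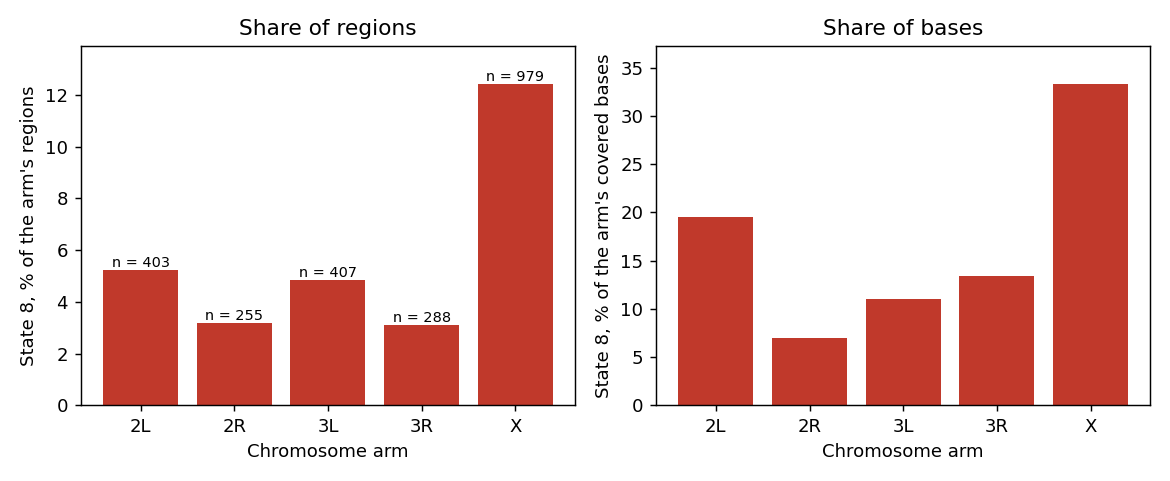
Share of State 8 among the listed regions of each chromosome arm (left, % of regions, with the number of State 8 regions above each bar) and among the covered bases of each arm (right, %). X has the highest bar in both panels, at 12.4% of its regions and 33.3% of its bases.

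The regions were mostly short, but a few long ones held much of the sequence. The median length was 2600 bp, against 3200 bp for State 9 and 1000 bp for State 7, and lengths ran from 200 to 235000 bp. Only 100 regions were longer than 50 kb, yet they held 40.5% of the summed length of 21.7 Mb. On the autosomal arms these long regions held 50.2% of the length and on X 26.0%. The median was higher on X, at 3200 bp against 2200 bp, and 3.27% of X regions were longer than 50 kb, against 5.03% of the autosomal ones.

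A base in State 8 was seldom State 8 in both of the regions over it. This was so for 10.3% of State 8 bases, the lowest share of the 9 states, against 67.2% for State 1, 57.8% for State 7 and 47.1% for State 9. For 73.8% of State 8 bases the other region was State 9, for 5.59% it was State 5 (active genes of the male X), for 4.14% State 7 and for 3.19% State 4 (active introns). For comparison, State 9 regions lay over 45.1% of all covered bases of the arms. Only 0.557% of State 8 bases lay in 1 region alone. The source of the pair of regions is not named in the list.

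The X chromosome and the autosomal arms differed in this too. On X, 19.0% of State 8 bases were State 8 in both regions, with State 9 over 59.8% and State 5 over 14.3%. On the autosomal arms the shares were 5.18%, 82.2% and 0.395%. State 7 was the other region over 5.73% of autosomal State 8 bases and 1.47% of those on X.

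The other state changed with the length of the region. On the autosomal arms State 9 was the other region over 31.3% of the bases of State 8 regions under 1 kb and over 94.5% of the bases of regions longer than 50 kb. Over the same range, the share that was State 8 in both regions fell from 27.4% to 1.75%, and the share with State 7 fell from 15.5% to 1.04%. On X, regions longer than 50 kb had State 9 over 73.8% of their bases and State 8 in both over 19.9%. The long State 8 domains were therefore, over most of their length, silent State 9 chromatin in the other region, and the short ones were mixed.

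**Figure D2:**
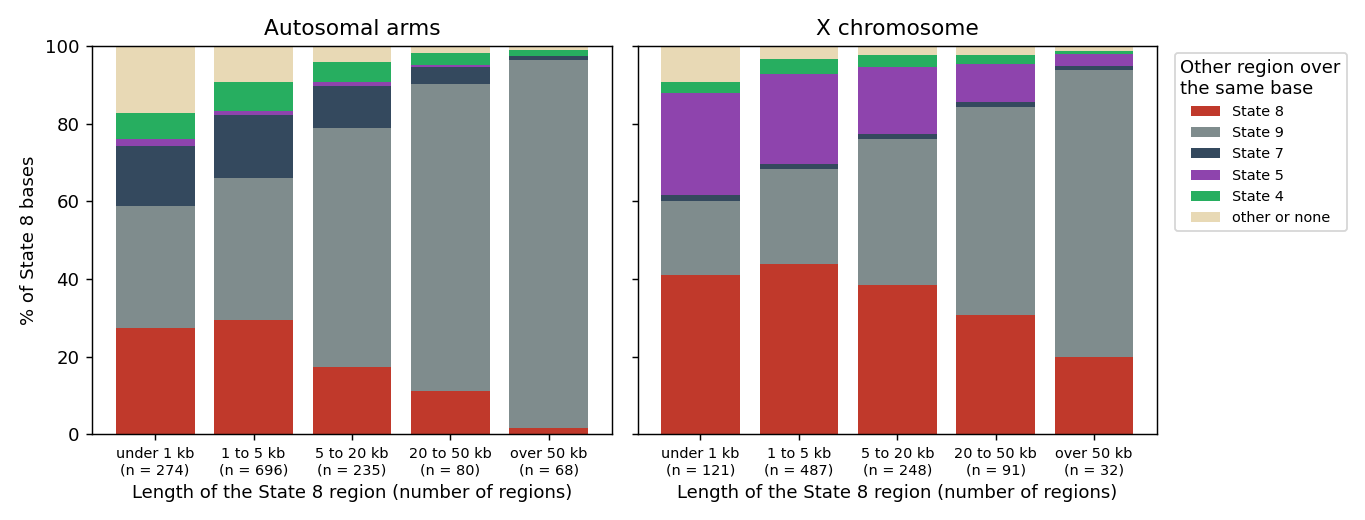
State of the other listed region over State 8 bases (% of State 8 bases, stacked) by length of the State 8 region, for the autosomal arms (left) and X (right), with the number of regions in each length class. The State 9 part grows with length, from 31.3% to 94.5% on the autosomal arms, and the State 5 part is seen mainly on X.

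The regions that abut State 8 give its surroundings along the chromosome. Of the ends of the 2332 regions, 4212 met exactly 1 other region, 195 met none and 257 met more than 1. The neighbour was State 9 at 42.9% of the 4212 ends, State 7 at 34.2% and State 5 at 16.5%, and State 1 at 2.11%. Of the covered bases of the arms, State 9 covers 45.1%, State 7 5.82%, State 5 7.28% and State 1 8.57%. State 7 was thus a common neighbour for its share of bases, while the share of ends at State 9 was near its share of bases. On the autosomal arms State 7 was the neighbour at 59.6% of the ends of regions under 1 kb and at 30.7% of those of regions longer than 50 kb, while State 9 went from 30.9% to 59.8%. State 9 was not the first neighbour on every arm, since on 3L State 7 was at 55.3% of ends and State 9 at 40.1%. On X the neighbour was State 9 at 37.5% of ends, State 5 at 36.2% and State 7 at 19.9%. With length the shares on X ran otherwise than on the autosomal arms, as State 9 went from 39.0% of the ends of regions under 1 kb to 23.6% of those of regions longer than 50 kb, and State 7 from 20.6% to 23.6%.

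State 8 was spread unevenly along 2L and was not densest at the pericentromeric end of the arm, where the coordinates are highest. It covered 77.5% of the listed bases between 15 and 16 Mb, 51.2% between 17 and 18 Mb and 35.7% between 4 and 5 Mb. It covered 0.34% between 8 and 9 Mb and 0.701% between 19 and 20 Mb. In the last window, from 22 Mb, State 7 covered 94.0% of listed bases and State 8 13.2%.

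State 8 on 2L held fewer gene bases than the arm as a whole and few TEs. Protein-coding genes covered 49.4% of its bases, against 57.9% of State 9, 42.4% of State 7 and 66.6% of all listed bases. Exons covered 13.7% (State 9 18.4%, State 7 17.1%, all 26.4%) and introns 35.6% (39.5%, 25.3% and 40.2%). There were 7.53 TSSs per 100 kb in State 8, against 11.1 in State 9, 10.99 in State 7 and 16.1 over the arm, and State 8 held 336 of the 3673 TSSs (9.15%). TEs covered 3.85% of State 8, against 3.60% of State 9, 23.6% of State 7 and 5.00% of all listed bases. On 2L, 83.3% of State 8 bases also lay in a State 9 region, so the values of States 8 and 9 rest largely on shared bases. G and C made up 41.1% of State 8 bases, 41.5% of State 9 and 39.5% of State 7.

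**Figure D3:**
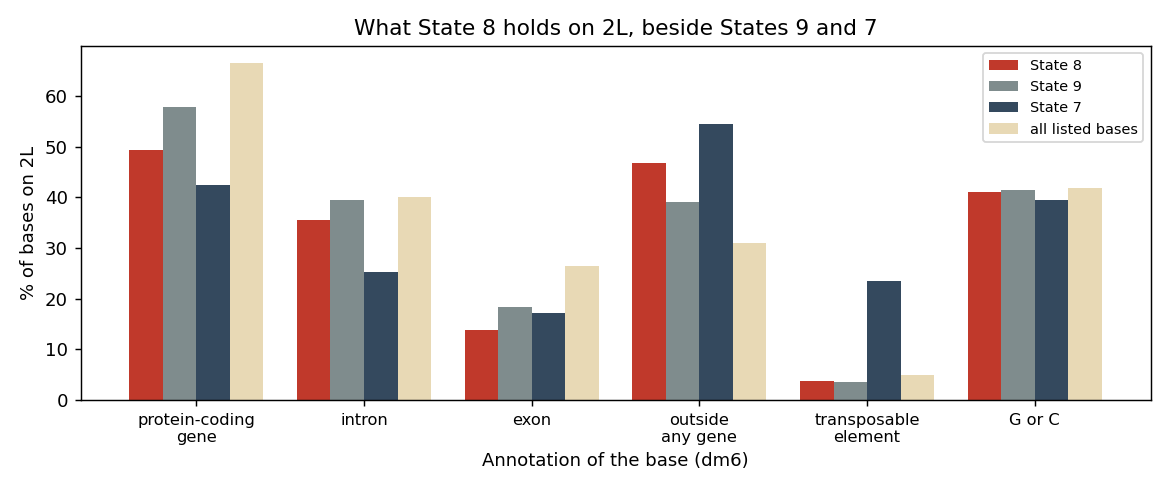
Share of bases on 2L (%) that lie in a protein-coding gene, an intron, an exon, outside any gene or in a TE, or are G or C, for State 8, State 9, State 7 and all listed bases. State 8 lies between States 7 and 9 in protein-coding and intron bases and in bases outside genes, and State 7 stands apart in TEs, at 23.6% against 3.85% for State 8.

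The TE content depended on the other region. State 8 bases with State 7 as the other region had 17.3% TE bases, those with State 9 had 2.79%, and those with State 8 in both had 0.611%. Of the 953 annotated TE copies of 2L, 191 (20.0%) had a base in State 8, a share near the 19.5% of covered bases of 2L in State 8. Of the bases of these 953 copies, 13.1% lay in State 8. The families with the most bases there were blood (29.6 kb, 4 of 12 copies), roo (27.7 kb, 4 of 26 copies) and copia (22.7 kb, 6 of 12 copies), which are LTR retrotransposons. INE-1, a short and old element, had the most copies, with 102 of its 399 copies (25.6%) in State 8 and 217 in State 7.

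State 8 touched long genes more often than shorter ones, and genes of both kinds lay wholly within it. Of 2657 protein-coding genes of 2L, 357 (13.4%) had a base in State 8 and 209 lay wholly within it. The 209 had a median length of 1.41 kb, against 1.99 kb for all. Among genes longer than 30 kb, 47 of 120 (39.2%) had State 8 bases, against 310 of 2537 (12.2%) of the shorter ones. A longer gene has more chances to touch a region, and a shorter one fits within State 8 more easily. Of the genes longer than 30 kb, 12 (10%) lay wholly within State 8, against 197 (7.77%) of the shorter ones. By bases, State 8 covered 21.5% of the genes longer than 30 kb and 9.13% of the others.

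The 20 genes with the most bases in State 8 had between 38.6 and 109 kb in it. CG44153, with no name of its own, had the most, with 109 kb of its 116 kb (93.9%). CadN2, a neuronal cadherin, lay wholly inside State 8 with 88.3 kb, of which 90.1% is not exon. nAChRalpha6, a nicotinic acetylcholine receptor subunit, had 86.3 kb (92.8%). Between 83.1% and 91.6% of the bases of these 3 genes are not exon.

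fred, a cell adhesion gene related to echinoid, had 84.4 kb in State 8 (95%). side-II, of the Sidestep family of axon guidance receptors, had 63.4 kb (97.8%), including 22800 bases with State 8 in both regions. fipi, known from courtship song, had 54.0 kb (90.8%), and tutl, a gene of axon and dendrite patterning, lay wholly inside with 40.6 kb. DIP-kappa, of the family that binds Dpr cell surface proteins, also lay wholly inside, with 40.5 kb.

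More of the 20 belong to the beat family, whose founding member guides motor axons: beat-Ib had 51.5 kb (89.9%), beat-Ic 40.0 kb (96.6%) and beat-IIIa 42.1 kb (100%). CG34106 is annotated at the same coordinates as beat-IIIa, so the values of these genes are not separate. stol, a calcium channel alpha2delta subunit gene, had 67.2 kb (90.7%) and Ggamma30A, a G protein gamma subunit gene, 45.9 kb (100%). Tmtc1, of a family of mannosyltransferases, had 41.7 kb (100%), and its relative Tmtc2 on the same arm lay wholly inside with 35.3 kb.

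The remaining genes of the 20 had other roles or no name of their own. bru1, an RNA-binding translational repressor of the germline that also acts in flight muscle, had 98.0 kb of its 138 kb (70.8%), split over 9 State 8 regions. dpy, which encodes a giant extracellular matrix protein, had 40.9 kb of 137 kb (29.9%), the lowest share of the 20. rdo had 57.9 kb (100%), CG46301 52.7 kb (93.2%) and CG4168 38.6 kb (100%).

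**Figure D4:**
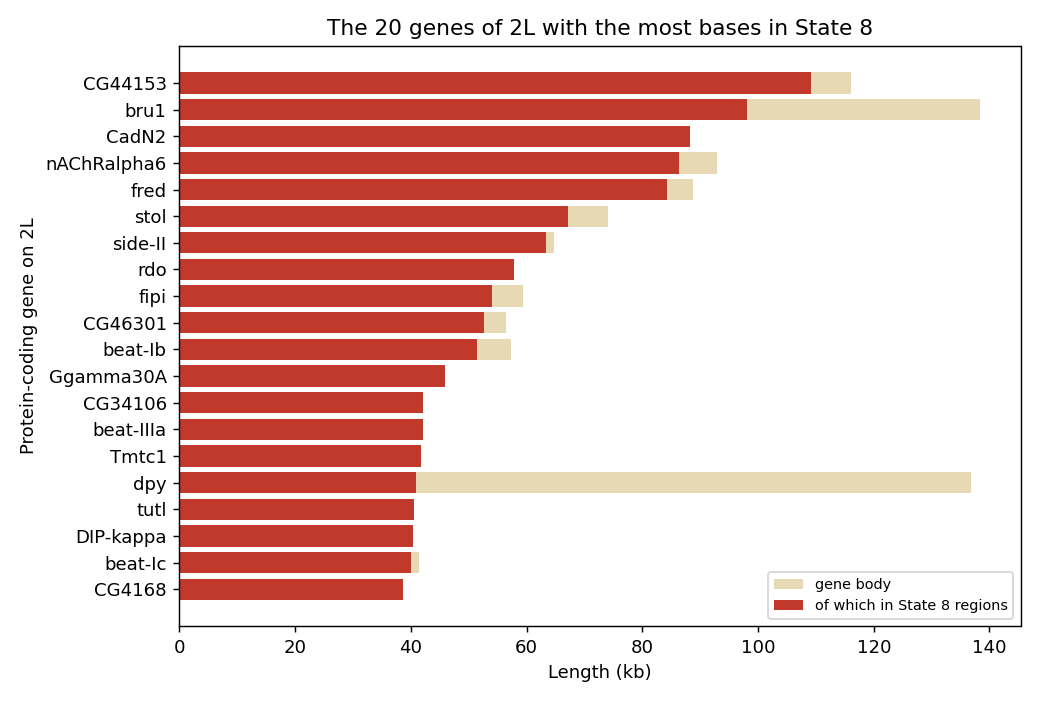
Length of the 20 protein-coding genes of 2L with the most bases in State 8 (kb), with the part in State 8 regions in red over the whole gene body. Most genes are almost wholly red, while bru1 (70.8%) and dpy (29.9%) are not.

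Several gene families were set beside these genes after their values had been seen, so their counts are only descriptive. Of the 6 beat genes of 2L, 5 had State 8 bases, and beat-IIIc, 73.1 kb long, had none. Of these, beat-IIIa and beat-IIIb lie in the same State 8 region, and beat-Ia, beat-Ib and beat-Ic lie close together. They are therefore not separate observations. Of the 6 DIP genes, 4 did, and DIP-epsilon and DIP-iota had none. kek3, of the Kekkon family of transmembrane proteins, was the only one of 4 kek genes with State 8 bases, and nAChRalpha6 the only one of 3 nicotinic receptor genes. The background for these counts is that 13.4% of all protein-coding genes, and 39.2% of those longer than 30 kb, had a State 8 base.

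Of all protein-coding genes of 2L, 7.87% lay wholly within State 8, and the chemoreceptor families are given beside this share. Of 17 gustatory receptor (Gr) genes on 2L, 8 (47.1%) lay wholly within State 8, namely Gr22a to Gr22d, Gr23a and Gr36a to Gr36c, and the other 9 had no State 8 base. Of 10 odorant receptor (Or) genes, 3 (30%) lay wholly within it, namely Or23a, Or24a and Or35a. Or22a to Or22c, Or30a and Or33a to Or33c had no State 8 base. Of 4 ionotropic receptor (Ir) genes, Ir21a had 28.2% and Ir40a 33.9% of its bases in State 8. Neighbouring Gr genes such as Gr36a to Gr36c lie in the same region, so they are not separate observations.

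Of 15 germline and stem cell niche genes on 2L, 2 (13.3%) had State 8 bases, a share near the 13.4% of all protein-coding genes. The other 13 had none, among them piwi and aub of the piRNA pathway, chinmo, Socs36E, tkv, Mad, dpp and tj. esg, a Snail-type zinc finger gene that acts in the hub and stem cells of the testis, lay wholly within a State 8 region of 62 kb. vas, which encodes the germline RNA helicase Vasa, had 48.6% of its 12.7 kb in a State 8 region of 23 kb that ran on past its 3′ end. The edge of that region inside vas (chr2L:15068063-15068262, plus strand, dm6) is shown because it marks where a germline gene passes from State 1 alone, in lower case, to State 8 and State 1, in capitals.
vas edge: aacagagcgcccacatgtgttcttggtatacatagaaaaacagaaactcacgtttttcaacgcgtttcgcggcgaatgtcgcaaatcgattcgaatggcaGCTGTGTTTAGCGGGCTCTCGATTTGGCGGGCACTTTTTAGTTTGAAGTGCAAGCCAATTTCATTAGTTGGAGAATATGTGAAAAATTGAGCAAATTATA

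The 2 sides of the vas edge differ little in base composition, with 45% G or C before the edge and 39% after it. Of the 5 genes found from the heterochromatin list, 0 had a State 8 base, against 13.4% of all protein-coding genes. They are lt and cta, pericentromeric genes of 2L, the gene of HP1, and tsh and tio. With 5 genes the list is too small to set against that share. cta also runs past the end of the listed bases, so part of it has no state. Haspin was not found by that name.

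The lists of male reproductive genes were small, and their counts are given beside the 13.4% of all protein-coding genes with a State 8 base. None of 8 accessory gland (Acp) genes had State 8 bases. Among 16 seminal fluid (Sfp) genes 1 did (6.25%), Sfp35C, and among 4 male-specific transcript (Mst) genes 1 did (25%), Mst36Fa, with 44.1% of its bases. Of the 14 cytochrome P450 (Cyp) genes, a family of another kind, 1 did (7.14%), Cyp309a1, with 68.1%. None of the 112 histone (His) genes of the replication-dependent cluster and elsewhere on 2L had State 8 bases. The histone genes of the cluster lie together, so they are not separate observations. Of 41 tRNA genes 1 did.

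lncRNA and microRNA genes had State 8 bases more often than protein-coding genes, and antisense RNA genes less often. Of 524 lncRNA genes, 139 (26.5%) had State 8 bases and 127 lay wholly within it, against 13.4% of protein-coding genes, and of 92 antisense RNA genes 8 (8.70%) did. The longest was lncRNA:CR44909, with 42.6 kb wholly inside. Of 56 microRNA genes, 16 (28.6%) lay wholly within State 8. They included the cluster mir-959 to mir-964, which lies in DIP-theta, and mir-1 and mir-133, microRNAs of muscle, and mir-124, a microRNA of neurons. Neighbouring microRNA genes such as mir-959 to mir-964 lie in the same region, so they are not separate observations.

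The longest State 8 regions of 2L show how these genes lie together. The longest, chr2L:16949963-17184962, spans 235 kb, holds 14 protein-coding genes wholly, among them beat-IIIb, beat-IIIa and the Gr36a to Gr36c cluster, and has State 9 as the other region over 100% of its bases. The next, of 165 kb, begins at the 3′ end of CadN2 and holds 3 protein-coding genes and 8 noncoding RNA genes. The third, of 155.6 kb, holds wor and sna, Snail-type zinc finger genes like esg, and esg lies in the 62 kb region just before it. The fourth, of 138 kb, holds mir-133 and lncRNA:CR44909, with exons over 2.17% of its bases.

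The other 4 of the 8 longest regions were between 107.2 and 131.4 kb. They held Ca-alpha1D, an L-type calcium channel gene, with part of beat-Ia, then a group of 11 genes that are mostly unnamed, then Tmtc1 with Gr23a and Or23a, and last Tep1, a thioester protein gene of immunity, with part of beat-Ib. Over the 8 regions TEs covered between 1.53% and 9.41% of the bases and G and C between 38.5% and 43.5%.

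The reads that the 12 libraries placed in State 8 could be given for the sum of the libraries only. The table of reads has as many rows as the list, and the number of reads per row followed the length of the listed region over all 42126 rows (Spearman rho 0.869, and 0.062 when rows were shifted by 1), so the rows were read in the order of the list. The sum over all rows was 115822034, with most reads counted in 2 regions. Only 2L is used for reads by state, because the coordinates of the other arms were not matched to dm6, to which the reads were aligned. On X, the density over all regions was 0.543 times that of the autosomal arms, from regions whose place in dm6 was not matched.

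State 8 on 2L held about as many reads as the arm as a whole. The 403 regions had 546 reads per kb summed over the libraries, against 557 for all 7682 regions, 548 for State 9, 391 for State 7 and 632 for State 1. State 8 was thus at 97.9% of the density of all regions. On 2L, 83.3% of State 8 bases also lay in a State 9 region, so most of its reads were counted in both classes. The median State 8 region had 574 reads per kb, with quartiles of 528 and 623, and regions ran from 0 to 890. The density of the 24 regions longer than 50 kb was narrower, from 404 to 596.

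The low values of State 8 fell where sequence is repeated in the genome. Reads of mapping quality 10 or less had been removed, so the share of each region whose 50-base windows occur once in dm6, 50 bases being the read length, was set beside its reads. Reads were paired, so a read in repeated sequence could still be placed by its mate. In 388 of the 403 regions at least 50% of windows were found once, and their median density was 578 reads per kb, with a lowest value of 249. In the other 15, of 154 kb in all, the median was 110 and the highest value 320. Over the 403 regions Pearson's r of the density with this share was 0.78 and Spearman's rho 0.29 (a description over regions of the same libraries). The 4 regions with 0 reads had at most 6.25% of windows found once.

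**Figure D5:**
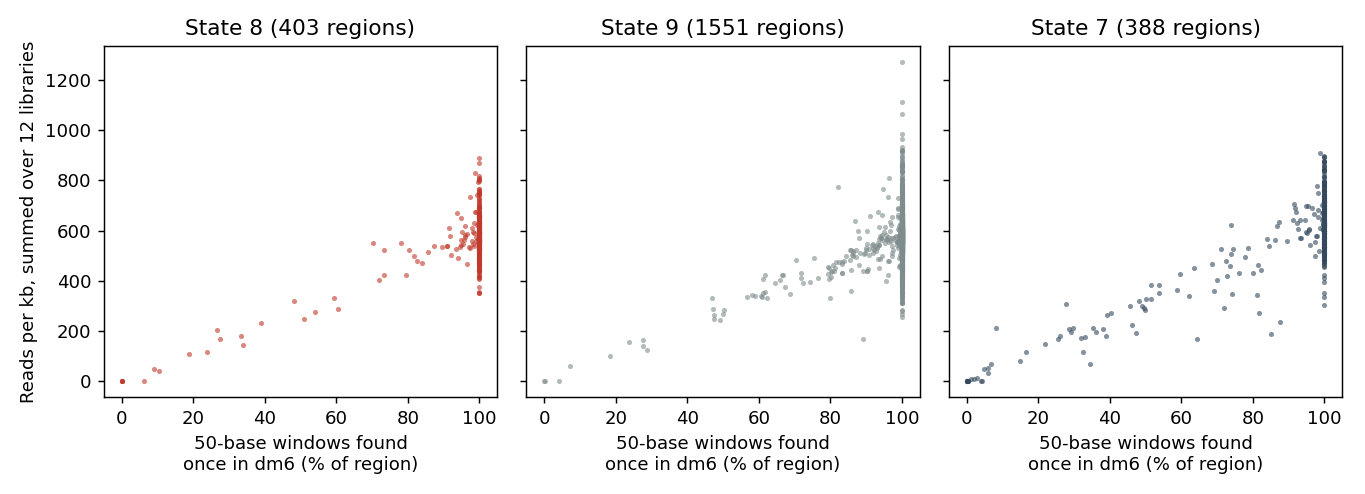
Reads per kb summed over the 12 libraries against the share of 50-base windows found once in dm6 (%), 1 point per listed region of 2L, for State 8 (403 regions), State 9 (1551) and State 7 (388). In all 3 states the density rises with the share, and the 15 State 8 regions with a share under 50% lie at or below 320 reads per kb.

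Counted per kb of windows found once, the order of the classes changed. State 8 had 580 reads per such kb, State 9 had 574 and all regions 594, while State 7, of whose bases 62.0% began a window found once against 94.2% for State 8, went from 391 to 631. Base composition moved with the reads as well. Among the 388 regions the density fell with G and C content (Spearman rho -0.51), from a median of 622 reads per kb in the 97 regions with the least G and C to 527 in the 97 with the most. The same rho was -0.51 for State 9 and -0.53 for State 7, and between -0.36 and -0.72 for the other states, so State 8 was not alone in this. The part of mapping and of base composition in the reads was not tested further.

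The longest State 8 region without reads lay in stol. It spans 30 kb at chr2L:15688163-15718162, within a run of 58.8 kb without reads, and TEs cover 0.00667% of it. Of the 50-base windows in the run, 99.9% occur more than once in dm6, and 80.9% have an exact copy 34997 bases away inside the run itself. The reference thus holds this stretch of stol as a tandem pair of copies. Another State 8 region over stol, of 37 kb, had 110 reads per kb with 18.9% of windows found once. That region reaches into the run without reads, which begins at chr2L:15659963, so it is not a separate case. The middle 100 bases of the region without reads (chr2L:15703113-15703212) and the copy of them (chr2L:15668116-15668215) are shown as an example of the pair. Both are on the plus strand of dm6 and outside exons. They differ at 0 of 100 bases, so no base is in capitals.
region without reads: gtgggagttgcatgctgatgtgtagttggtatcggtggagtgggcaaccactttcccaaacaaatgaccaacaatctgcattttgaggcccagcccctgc
copy: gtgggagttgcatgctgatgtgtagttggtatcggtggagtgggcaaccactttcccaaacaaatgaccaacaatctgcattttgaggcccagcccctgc

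The State 8 part of vas and the region of esg held no repeated windows. All windows of the 23 kb vas region and of the 62 kb esg region were found once, and they had 610 and 574 reads per kb. The 165 kb region over CadN2 had 564 reads per kb and the 235 kb region over beat-IIIa 561. The 9 State 8 regions in bru1 ran from 423 to 722 reads per kb. These named regions are themselves among the 388 State 8 regions with mostly unique sequence, so they cannot be set against the range of those regions.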

How the data were processed

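Tagged histones were mapped by ChIC in 12 libraries (3 replicates of each of 4 groups) with 50 bp paired-end reads. The authors aligned them with Bowtie2 (dm6), kept non-redundant reads of mapping quality above 10 and deposited counts of reads per listed region. The 12 count columns carry no names, so none was matched to a sample and only their sum was used. The authors took the deposited list of 9 states from modENCODE, and its build is not given in the sources used here.

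State 8 was described by listed regions, by bins of 200 bp and, on 2L, by bases of dm6 with the Ensembl release 115 annotation and the RefSeq sequence. A window of 50 bases was unique if it occurred once in dm6 on either strand. Starts were counted from 0 in the list and are given from 1. The regions named are the 8 longest on 2L and the longest stretches with State 8 in both regions. The genes named are the 20 with the most State 8 bases, the 10 longest wholly inside, and members of gene lists with State 8 bases. The regions, lists and alternatives were chosen with earlier results of these data known. Overlap counting was tested on simulated lists. Python 3.11.15 was used with numpy 2.4.6 and pandas 2.3.3. No test was run, because neither the list nor the summed reads have replicates. Alternatives changed the arms, region lengths, gene set, TSS set and the length by which reads were divided.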

Additional observations from a re-analysis of the deposited data

How the results depend on the processing

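No paired analysis was possible because no replicate number can be read from the columns, and no library could be left out for the same reason. The values have no replicate spread, so the 32 alternatives are given as values. Without X, State 8 made up 4.06% of regions, 5.18% of State 8 bases were State 8 in both regions, and neighbours were State 9 at 46.7% and State 7 at 44.5% of ends. By bases in place of regions, the class was 16.7%. On 2L only, 4.27% of bases were State 8 in both regions, and neighbours were State 9 at 49.6% and State 7 at 40.9%. With State 8 regions of at least 1000 bp these were 44.8% and 31.5%, and 10.0% of State 8 bases were State 8 in both regions. On 2L such regions had 49.3% of bases in protein-coding genes and 3.86% in TEs. Among all regions of at least 1000 bp, State 8 made up 5.67%. With all gene types in place of protein-coding genes, genes covered 53.2% of State 8 bases on 2L. Where both regions were State 8, protein-coding genes covered 55.4% and TEs 0.611% of bases, and 0.245% of TSSs lay there. With 1 TSS per gene, 10.3% of TSSs lay in State 8, and with the base 500 bp upstream of the TSS 9.49%. Without the last 3 Mb of 2L, TEs covered 2.42% and protein-coding genes 53.1% of State 8 bases, and 9.46% of TSSs lay in State 8. In regions without TE bases, an alternative chosen after seeing the data, State 8 had 94.1% of the read density of all regions, and per kb of windows found once, chosen likewise, 97.7%. Under the other read alternatives it had 96.3% to 98.4%, and G and C made up 41.0% to 41.3% of bases under theirs. By single arm, the order of neighbours turned on 3L, with State 7 at 55.3% and State 9 at 40.1%. The depth of single libraries cannot be given from the sum.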
